A study of Mus musculus with 16 samples.

Results

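The 10 genes of the MHC class II pathway described here were the classical chain genes H2-Aa, H2-Ab1 and H2-Eb1, the invariant chain gene Cd74, the transactivator gene Ciita, and the accessory chain genes H2-DMa, H2-DMb1, H2-DMb2, H2-Oa and H2-Ob. They were taken by name, as listed, from 47937 gene identifiers counted in 16 RNA-seq libraries. The libraries came from 2 kinds of multipotent progenitor sorted from mouse bone marrow, MPP3, which mostly yields myeloid cells, and MPP4, which mostly yields lymphoid cells. The donors were 8 C57BL/6 mice, of which 4 carried the label WT and 4 the label KO for Ebf1, a factor that B cell development depends on. Each mouse gave 1 library of each population, so each of the 4 groups had 4 libraries. The mice labelled WT were 12, 11, 12 and 11 weeks old and the mice labelled KO were 10, 9, 11 and 11 weeks old, with 2 females and 2 males in each genotype.

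Per the labels, the mice labelled WT were Ebf1fl/fl Tie2Cre+/+ (floxed alleles without Cre) and the mice labelled KO were Ebf1fl/fl Tie2Cre +/cre, so that all mice carried floxed Ebf1 alleles. The description of the series instead gave the Cre to both groups and unfloxed alleles to the WT mice. Tie2Cre acts in the endothelium and in the stem cells of the blood, so the deletion was not limited to the sorted progenitors. Both populations were sorted as lineage-depleted LSK+ CD150- CD48+ cells, with Flt3 as an additional marker of MPP4. The labels named no gate on Flt3 for MPP3, which the antibody panel of the study lists as negative for it. Total counts per library lay between 24823708 and 48703193. Levels are given as CPM, the counts of a gene relative to the TMM-scaled total of its library. The labels of the populations were matched by their markers: 6 of 6 MPP4 marker genes were lower, and 5 of 6 MPP3 marker genes were higher, in MPP3 than in MPP4 in each genotype. This is not an independent check. Flt3 is on the MPP4 list and marks the MPP4 gate, and the lists were chosen with earlier results of these data known. The labels of the genotypes were not matched by Ebf1 itself. Its level was 0.150 to 2.22 CPM in the MPP3 libraries labelled KO and 0.150 to 2.18 CPM in those labelled WT, and in MPP4 it was 17.5 to 24.8 CPM under the KO label against 3.30 to 6.16 CPM under the WT label. A gene count sums all exons and cannot show the loss of some of them. Of the B cell genes, Pax5 had 0 counts in all 4 MPP4 KO libraries and 0 to 129 in MPP4 WT, and Cd79a had log2 fold changes of -3.01 ± 0.93 in MPP3 and -3.88 ± 0.97 in MPP4 (adjusted p = 0.254 and 0.160 by edgeR). These 2 were singled out after their values were seen, and the list as a whole had no common direction: of its 5 tested genes, 2 were above 0 in MPP3 and 3 in MPP4, among them Blnk at 0.83 in MPP4 (adjusted p = 0.166). KO and WT below are therefore the names of labels.

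MHC class II molecules are pairs of an alpha and a beta chain that present peptides from endocytosed protein to CD4+ T cells. Dendritic cells, B cells and macrophages are the cells best known for them. The chains assemble with the invariant chain, which blocks the groove and guides the complex to endosomes, where cathepsins degrade it and the H2-DM heterodimer exchanges its last fragment for peptide. H2-O restrains H2-DM. Ciita, which does not bind DNA itself, switches the genes on by joining a complex of RFX, CREB and NF-Y factors at the X and Y boxes of their promoters.

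The promoters of 4 genes are shown because these genes, with Cd74, separated the populations without overlap in both genotypes. Each line holds bases 150 to 26 before the RefSeq start of transcription, 5′ to 3′ on the strand of the gene. Capitals mark the Y box core GATTGG or its reverse complement, matches of the X box pattern, and the palindrome TGACGTCA, which CREB is known to bind.
H2-Aa (GRCm38.p6, chr17:34287849-34287973, minus strand): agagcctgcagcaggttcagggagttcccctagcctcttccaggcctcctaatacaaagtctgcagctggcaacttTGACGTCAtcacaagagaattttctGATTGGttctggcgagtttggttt
H2-Eb1 (GRCm38.p6, chr17:34305717-34305841, plus strand): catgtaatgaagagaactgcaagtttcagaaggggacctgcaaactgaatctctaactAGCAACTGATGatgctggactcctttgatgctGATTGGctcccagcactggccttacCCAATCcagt
H2-DMb2 (GRCm38.p6, chr17:34145099-34145223, plus strand): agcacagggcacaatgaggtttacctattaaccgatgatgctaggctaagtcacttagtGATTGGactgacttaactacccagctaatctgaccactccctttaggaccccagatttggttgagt
H2-Ob (GRCm38.p6, chr17:34238755-34238879, plus strand): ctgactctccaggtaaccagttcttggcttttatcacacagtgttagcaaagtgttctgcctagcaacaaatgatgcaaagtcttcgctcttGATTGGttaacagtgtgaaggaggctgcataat

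The RefSeq table held promoter windows of 300 bases, 250 before and 50 after the start, for 7 of the 10 genes, and none for H2-Ab1, Cd74 and Ciita. GATTGG was found on either strand in all 7, against 16.1% of the 32851 windows of all genes. On the strand of the gene its first base lay 44 bases before the start in H2-Oa, 49 in H2-Aa, 58 in H2-Ob, 60 in H2-Eb1, 62 in H2-DMb1, 91 in H2-DMb2 and 199 in 1 of the 2 windows of H2-DMa. The X box pattern, AG followed by any 2 bases, AC, any base and GATG, was found in H2-Eb1, H2-DMb1 and H2-Oa, and in 0.968% of all windows. The narrower form, in which the second free base is A, was found in H2-Eb1 and H2-DMb1 and in 0.298% of all windows, and each match of it is also a match of the wider form. The gap between X and Y box was 21 bases in H2-Eb1, 22 in H2-DMb1 and 86 in H2-Oa. TGACGTCA, added to the search after the windows had been read, was found in H2-Aa, 74 bases before the start, and in 1.79% of all windows. The EBF1 consensus, TCCC, any 2 bases and GGGA, was found in none of the 7 genes and in 0.904% of all windows. A match describes letters in a window and no match says only that they are not there.

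All 10 genes passed the filter of a mean above 100 counts in at least 1 group. Ciita passed it through the MPP4 groups alone, with mean counts of 115 in WT and 112.5 in KO, against 46.8 and 78.0 in MPP3, while the other 9 exceeded it in every group. Compared per length, with the longest protein-coding transcript of each gene, H2-DMa was highest in MPP4 WT cells at 187 ± 13.8 CPM per kilobase (SD, n = 4). It was followed by H2-Ab1 (91.6 ± 16.9), Cd74 (68.3 ± 17.4), H2-Ob (64.3 ± 13.5), H2-DMb1 (50.1 ± 3.87), H2-Oa (27.6 ± 4.76), H2-Aa (24.3 ± 6.35), H2-Eb1 (8.76 ± 2.92), H2-DMb2 (7.29 ± 1.51) and Ciita (0.470 ± 0.0999 CPM per kilobase). Between neighbours in this order, the SDs overlapped for H2-Ab1 and Cd74, Cd74 and H2-Ob, H2-Ob and H2-DMb1, H2-Oa and H2-Aa, and H2-Eb1 and H2-DMb2. Farther apart in the order, those of H2-Ab1 and H2-Ob and of Cd74 and H2-DMb1 overlapped as well. The alpha and beta chains of the H2-A molecule thus differed in transcript level, H2-Ab1 being the higher. With the union of all annotated exons as length, a choice added after the values were seen, the order changed in that Cd74 (57.3) stood above H2-Ab1 (43.2), H2-DMb1 (41.8) above H2-Ob (31.9) and H2-Eb1 (7.52) above H2-Aa (7.22 CPM per kilobase).

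The listed genes of the class II locus included 2 more with an identifier in the files, and neither passed the filter. H2-Ea-ps, which would supply the alpha chain that pairs with H2-Eb1 and is a pseudogene in C57BL/6 mice, had 0 counts in all 16 libraries, which allows at most 0.118 CPM in a library by a limit of 3 counts. H2-Eb2, a second beta chain gene, had 0 to 62 counts. The window of H2-DMb2 shown above starts inside the annotated gene, outside its exons. In GRCm38 the chain genes lie together on chromosome 17, with H2-Oa at chr17:34092340-34095234, H2-DMa at chr17:34119541-34139101, H2-DMb2 at chr17:34143307-34151555, H2-DMb1 at chr17:34153072-34160230, H2-Ob at chr17:34238903-34254414, H2-Ab1 at chr17:34257689-34269419, H2-Aa at chr17:34282744-34287823 and H2-Eb1 at chr17:34305867-34316674. Cd74 lies at chr18:60803848-60812652 and Ciita at chr16:10480059-10528418. Use of strand in the counting was not given in the sources used here, and exons of Ciita, H2-DMa and H2-Oa overlap exons of genes on the opposite strand (Dexi, Brd2 and BC051537), so reads of the overlaps cannot be told apart. The transcripts of H2-DMb1 and H2-DMb2 were 94.8% identical over 1219 aligned bases, with an identical run of up to 221 bases, so reads of 100 bases cannot always be assigned to one of them.

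**Figure D1:**
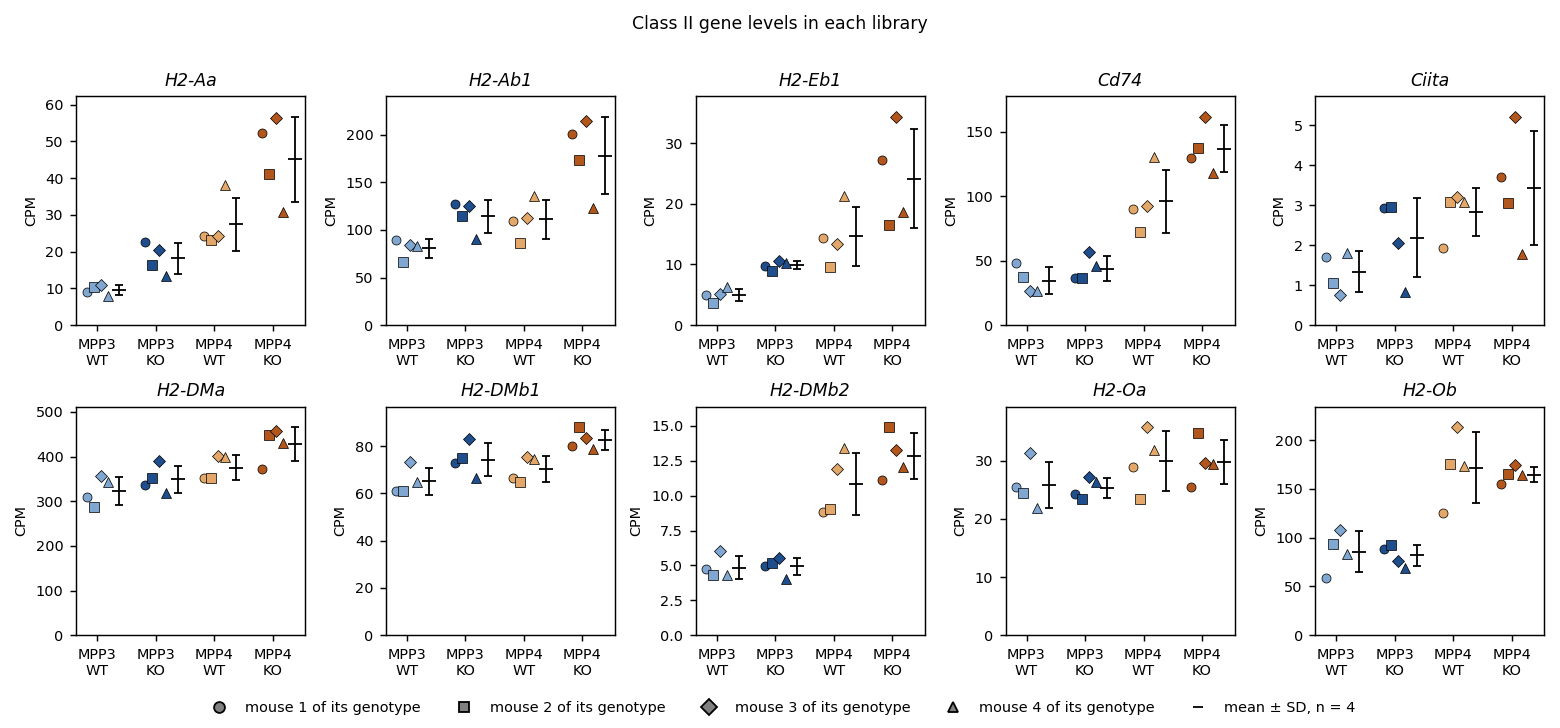
Level of each class II gene in CPM (linear axes from 0) in the 4 libraries of each group; the shape of a point names the mouse and the bar gives the mean ± SD (n = 4). H2-Aa, H2-Eb1, Cd74, H2-DMb2 and H2-Ob were higher in every MPP4 library than in any MPP3 library of the same genotype.

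The first comparison was between the populations. The estimates of all 10 class II genes were lower in MPP3 than in MPP4 in both genotypes, but not all were called. The largest differences were those of H2-Eb1, H2-Aa and Cd74 in WT and of Cd74, H2-DMb2 and H2-Aa in KO mice. Of the 10 genes, 6 were called lower in MPP3 WT cells, where 8.33% of the 11831 genes tested were. In MPP3 KO cells 7 were called lower, where 9.18% of all genes were. No member was called higher, against 6.80% and 8.71% of all genes. The median log2 fold change of the members was -1.04 in WT and -0.83 in KO mice, beside -0.00039 and -0.0079 over all genes tested. Ciita, which passed the filter through the MPP4 groups alone, was a middle value in both genotypes. Without it the median was the value of H2-Ob, -1.003 in WT and -1.01 in KO mice. In bulk RNA a lower level can come from fewer cells that hold a transcript or from less of it per cell, and these cannot be told apart.

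The classical chain genes H2-Aa and H2-Eb1 were lower in MPP3 without overlap in both genotypes. H2-Aa had 8.96, 10.3, 11.0 and 7.99 CPM in the MPP3 WT libraries and 24.4, 23.1, 24.1 and 38.1 CPM in the MPP4 WT libraries of the same mice in the same order. The groups did not overlap, and its log2 fold change was -1.52 ± 0.22 (SE, adjusted p = 0.000135). In KO mice it had 22.6, 16.2, 20.5 and 13.4 CPM in MPP3 and 52.1, 41.1, 56.3 and 30.8 CPM in MPP4, again without overlap (log2 fold change -1.31 ± 0.21, adjusted p = 0.000423).

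H2-Eb1 followed the same pattern at a lower level. Its MPP3 WT libraries held 4.89, 3.69, 5.08 and 6.25 CPM and its MPP4 WT libraries 14.4, 9.51, 13.3 and 21.2 CPM (log2 fold change -1.55 ± 0.26, adjusted p = 0.000531). Under the KO label it had 9.80, 8.93, 10.6 and 10.3 CPM in MPP3 and 27.2, 16.4, 34.3 and 18.7 CPM in MPP4 (log2 fold change -1.28 ± 0.25, adjusted p = 0.00193). Neither pair of groups overlapped.

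H2-Ab1, the beta chain that pairs with H2-Aa, differed less between the populations. It had 88.9, 66.5, 84.6 and 83.1 CPM in MPP3 WT and 109.5, 86.0, 112 and 136 CPM in MPP4 WT, so that the highest MPP3 library stood above the lowest MPP4 library. Its log2 fold change of -0.46 ± 0.17 passed the threshold narrowly (adjusted p = 0.0949), and it missed it in 20 of the 32 alternative fits, among them the one without mouse WT4 (-0.36, adjusted p = 0.369). In KO mice the values were 127, 115, 125 and 90.0 CPM in MPP3 and 201, 173, 215 and 123 CPM in MPP4 (log2 fold change -0.64 ± 0.17, adjusted p = 0.0158), and it was called in all 32 alternatives.

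Cd74, which encodes the invariant chain, had the largest difference of the 10 in KO mice. Its levels were 47.8, 37.5, 26.5 and 26.3 CPM in MPP3 WT and 89.8, 72.6, 92.1 and 131 CPM in MPP4 WT (log2 fold change -1.48 ± 0.21, adjusted p = 0.000131). In KO mice they were 36.3, 36.3, 56.9 and 45.8 CPM in MPP3 and 130.1, 137, 161 and 118 CPM in MPP4 (log2 fold change -1.64 ± 0.21, adjusted p = 4.1e-05). No MPP3 library reached the lowest MPP4 library of its genotype.

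The accessory chains fell into 2 kinds. H2-DMb2 was lower in MPP3, at 4.28 to 6.07 CPM in WT and 4.06 to 5.55 CPM in KO libraries, than in MPP4, at 8.84 to 13.4 and 11.1 to 14.9 CPM (log2 fold changes -1.15 ± 0.19 and -1.38 ± 0.19, adjusted p = 0.000433 and 6.7e-05). H2-Ob, the beta chain of H2-O, was lower as well, at 58.3 to 108 CPM in MPP3 WT against 125 to 213 CPM in MPP4 WT and at 68.9 to 92.9 CPM in MPP3 KO against 155 to 174 CPM in MPP4 KO (log2 fold changes -1.003 ± 0.17 and -1.01 ± 0.17, adjusted p = 0.000594 and 0.000481). For both genes no library of one population overlapped the other.

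By contrast, H2-DMa, H2-DMb1 and H2-Oa differed little. H2-DMa was at 287 to 356 CPM in MPP3 WT and 351 to 400.5 CPM in MPP4 WT (log2 fold change -0.21 ± 0.086, adjusted p = 0.138), and at 319 to 389.7 CPM in MPP3 KO and 373 to 458 CPM in MPP4 KO (-0.29 ± 0.086, adjusted p = 0.032). The KO call of H2-DMa was lost without the MPP3 library of mouse KO4 (adjusted p = 0.112), without both libraries of that mouse (0.165) and without mouse KO2 (0.141). H2-DMb1 had log2 fold changes of -0.11 ± 0.085 and -0.15 ± 0.085 (adjusted p = 0.506 and 0.304), and H2-Oa, the alpha chain of H2-O, of -0.22 ± 0.14 and -0.23 ± 0.14 (adjusted p = 0.415 and 0.344). These 3 genes held the 3 smallest differences of the 10 in each genotype.

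Ciita was the least abundant member, with 27 to 156 counts per library. It had 1.71, 1.06, 0.743 and 1.81 CPM in MPP3 WT and 1.93, 3.07, 3.21 and 3.09 CPM in MPP4 WT. Those groups did not overlap, but with an SE of 0.42 its log2 fold change of -1.08 missed the threshold (adjusted p = 0.126). Under the KO label it had 2.92, 2.94, 2.06 and 0.827 CPM in MPP3 and 3.71, 3.07, 5.20 and 1.78 CPM in MPP4, which overlapped (-0.65 ± 0.42, adjusted p = 0.377).

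In all, 6 members (5 without Ciita) had MPP3 libraries entirely below the MPP4 libraries in WT mice, where 8.27% of all genes did, and 5 in KO mice, where 8.60% did. Because each mouse was taken to have given both populations, the populations were also compared within mice. With the mouse as a replicate block, 8 members were called lower in WT, where 13.4% of genes were, and 7 in KO, where 14.5% were. The block changed the call of Ciita (log2 fold change -1.13 ± 0.37, adjusted p = 0.0487) and of H2-DMa (-0.22 ± 0.05, adjusted p = 0.00837) in WT mice and no other call of a member. Since Ciita entered through the population where it was higher, its call is not counted as support, and without it 7 members were called lower in WT mice under the block. Of the single mice, MPP4 had more than MPP3 in 8 of 8 for each member except H2-Oa, for which it did in 7 of 8. For Ciita this is again not counted as support, and the tally was not made over all genes. The ratio of MPP4 to MPP3 ranged from 2.20 to 4.78 for H2-Aa, from 1.81 to 3.40 for H2-Eb1, from 1.88 to 4.97 for Cd74, from 1.74 to 2.38 for H2-Ob, and from 1.00 to 1.18 for H2-DMb1.

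**Figure D2:**
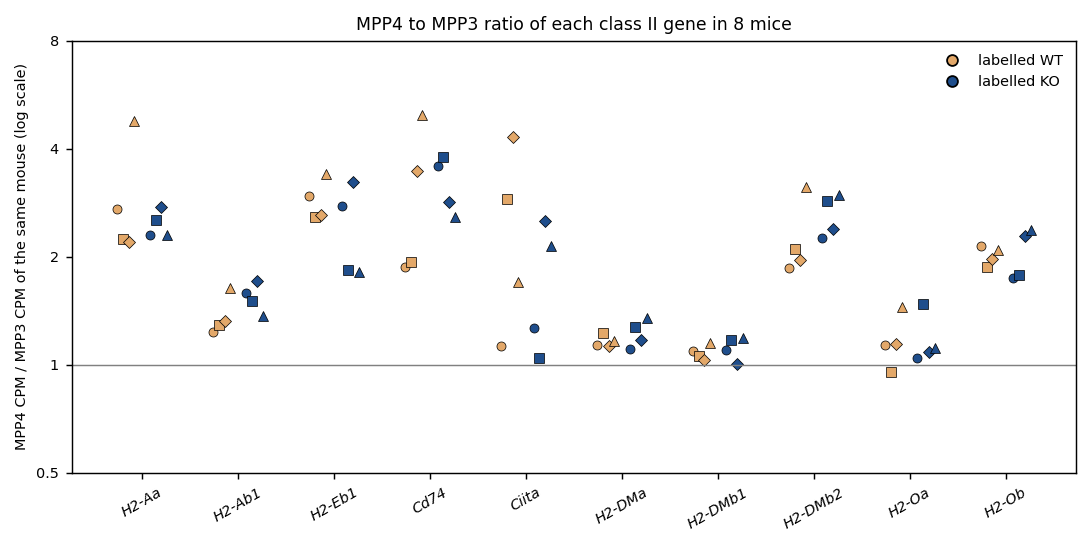
Ratio of the MPP4 level to the MPP3 level of the same mouse (log axis) for each class II gene, with 1 point per mouse and the line at equal levels. The points of H2-Aa, H2-Eb1, Cd74, H2-DMb2 and H2-Ob lie at 1.74 or above in every mouse, and those of H2-DMa, H2-DMb1 and H2-Oa between 0.956 and 1.48.

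The other genes of the pathway did not move together between the populations. The 7 genes of the complex on the X and Y boxes (Rfx5, Rfxap, Rfxank, Creb1, Nfya, Nfyb, Nfyc) included 0 called in either genotype, with a median log2 fold change of -0.034 in WT and -0.028 in KO mice. Among 11 genes of peptide loading and turnover, 10 were tested, and 2 were lower in MPP3 in both genotypes: Ctss, the cathepsin that trims the invariant chain in dendritic and B cells (log2 fold change -1.78 ± 0.14 in WT and -1.65 ± 0.14 in KO, adjusted p = 2.9e-07 and 5.3e-07), and Lgmn, an asparaginyl endopeptidase of endosomes (-1.86 ± 0.33 and -2.27 ± 0.33, adjusted p = 0.000922 and 0.000146). Ctsl, a cathepsin with that role in the thymic epithelium, was higher in MPP3 (0.40 ± 0.13 and 0.46 ± 0.13, adjusted p = 0.0718 and 0.0299). In KO mice Ctsh and Marchf8, a ubiquitin ligase, were higher as well (0.59 and 0.92, adjusted p = 0.0907 and 0.00799).

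Of 10 genes of the class I pathway, only Psmb9, a subunit of the immunoproteasome, was called, and it was lower in MPP3 (-0.20 ± 0.07 and -0.19 ± 0.07, adjusted p = 0.068 and 0.0725). Of 7 regulators linked to class II, 4 were tested, and Irf8, a factor of dendritic and B cell development, was lower in MPP3 in both genotypes (-1.50 ± 0.22 and -1.38 ± 0.22, adjusted p = 0.000147 and 0.00027). Ebf1 was lower in MPP3 KO cells (-4.71 ± 0.73, adjusted p = 0.000267) and had -1.76 ± 0.66 in WT cells (adjusted p = 0.105). Cd86, the 1 of 3 costimulatory genes that was tested, was lower in MPP3 (-0.87 and -0.85, adjusted p = 0.0536 and 0.0503). Of 11 genes of the interferon gamma pathway, 2 were lower in MPP3 in each genotype (Irf1 and Gbp6), while 2 in WT (Gbp2 and Jak1) and 3 in KO mice (also Ifngr1) were higher.

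Marker lists of other cell types differed between the populations too, in both directions. The summed level of 8 plasmacytoid dendritic cell genes was 260 to 301 CPM in MPP3 WT and 459 to 527 CPM in MPP4 WT, and 256 to 292 against 509.7 to 554 CPM in KO mice, with 4 of 6 tested genes called lower in MPP3 WT and 6 of 6 in MPP3 KO. The sum of 12 B cell genes was 271 to 879 CPM in MPP3 WT and 1189 to 1298 CPM in MPP4 WT, and 201 to 318 against 1227 to 1410 CPM in KO mice (3 of 5 tested genes lower in each). That of 9 conventional dendritic cell genes was 274 to 328 against 1179 to 1377 CPM and 223 to 306 against 956 to 1109 CPM (2 of 3 tested genes lower in each, Itgax and Flt3). Nearly all of that sum was Flt3, the marker of the MPP4 gate, at 255 to 312 CPM in MPP3 WT and 1159 to 1357 CPM in MPP4 WT, and the next most abundant gene, Clec10a, had log2 fold changes of 0.40 and 0.65 (adjusted p = 0.444 and 0.137). The sum of 6 monocyte genes was higher in MPP3, at 151 to 311 against 103 to 119 CPM in WT and 254 to 624 against 153 to 276 CPM in KO mice, with 3 genes called higher and 1 lower in WT and 4 higher and 2 lower in KO mice. The 8 plasma cell genes summed to 269.7 to 778 CPM in MPP3 WT and 209 to 376 CPM in MPP4 WT, with 3 of 6 tested genes higher and 1 lower in MPP3, and to 179 to 403 against 188 to 383 CPM in KO mice, with 1 higher and 2 lower. The 8 macrophage genes had 0 of 5 tested genes called in either genotype. Several defining markers of mature cells stayed under 1 CPM in every library: Clec9a reached at most 0.452 CPM, Xcr1 0.911, Batf3 0.405 and Ms4a1 0.611 CPM, and Klk1 was at 0 in all libraries. Others were higher: Clec10a reached 23.2 CPM, Itgax 8.53, Siglech 3.95, Zbtb46 2.00 and Cd209a 1.12 CPM. Of the 12 B cell genes, 5 passed the count filter: Cd79a, Cd79b, Ighm, Ighd and Blnk. The part of these cell types in the class II differences was not tested.

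The second comparison was between the genotypes, the question of the study for the transcriptome as a whole. H2-Aa, H2-Ab1 and H2-Eb1 were higher in the mean under the KO label in both populations, but none of the 10 genes passed the threshold. At an adjusted p under 0.1, 0 members were called higher in MPP3 and 0 in MPP4 by edgeR, where 0.0338% and 0.00845% of all genes were. At an unadjusted p under 0.05, 4 members were higher in MPP3 (4.29% of all genes) and 6 in MPP4 (5.68%). Of the 10 genes, 8 had a log2 fold change above 0 in each population, against 48.8% of all genes in MPP3 and 47.3% in MPP4. The median of the members was 0.27 in MPP3 and 0.26 in MPP4, beside -0.0055 and -0.013 over all genes.

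With the DESeq2 Wald test, which the study used, 3 members were called higher in MPP3 KO cells (0.862% of all genes were) and 2 in MPP4 KO cells (1.29%). In MPP3 they were H2-Aa (adjusted p = 0.00632), H2-Eb1 (0.0205) and H2-Ab1 (0.0998), and in MPP4 H2-Ab1 (0.00677) and H2-Aa (0.0509). In MPP4, 9 of the 10 members received an adjusted p from DESeq2, and Ciita did not. Whether these genes were called thus depended on the test.

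In MPP3 the KO libraries of the 3 classical genes stood above all WT libraries, as was the case for 2.17% of all genes. The mean of H2-Aa was 18.2 ± 4.17 CPM in KO and 9.56 ± 1.34 CPM in WT (SD, n = 4), a ratio of 1.90 (log2 fold change 0.93 ± 0.22, adjusted p = 0.155). It came under the threshold without the WT library of mouse 3 (1.00, adjusted p = 0.0892) and with sex as a term (0.92, adjusted p = 0.0998). With DESeq2 included, 3 of 33 alternatives called H2-Aa in MPP3, and its adjusted p reached 0.423. H2-Eb1 was at 9.91 ± 0.73 against 4.98 ± 1.05 CPM, a ratio of 1.99 (0.99 ± 0.25, adjusted p = 0.165), and H2-Ab1 at 114 ± 17.1 against 80.8 ± 9.83 CPM, a ratio of 1.41 (0.50 ± 0.17, adjusted p = 0.288).

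In MPP4 the classical genes overlapped between the genotypes. Mouse WT4 had the highest WT level of all 3, and the lowest KO level was that of mouse KO4 for H2-Aa and H2-Ab1 and that of mouse KO2 for H2-Eb1. H2-Aa was at 45.1 ± 11.5 CPM in KO and 27.4 ± 7.16 CPM in WT, a ratio of 1.64 (log2 fold change 0.72 ± 0.21, adjusted p = 0.193). H2-Ab1 was at 178 ± 40.5 against 111 ± 20.4 CPM, a ratio of 1.60 (0.68 ± 0.17, adjusted p = 0.150). It was called without the MPP4 library of mouse KO4 (0.82, adjusted p = 0.0663) and without both libraries of that mouse (0.82, adjusted p = 0.0503). With sex as a term it was called as well (0.69, adjusted p = 0.0668). With DESeq2 included, 4 of 33 alternatives called H2-Ab1 in MPP4, and its adjusted p reached 0.417. H2-Eb1 was at 24.2 ± 8.19 against 14.6 ± 4.88 CPM, a ratio of 1.65 (0.72 ± 0.25, adjusted p = 0.238).

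Cd74 had a log2 fold change of 0.35 ± 0.21 in MPP3 (adjusted p = 0.616) and of 0.51 ± 0.21 in MPP4 (adjusted p = 0.307). Among the accessory chains, H2-DMb1 had the smallest p-values, with 0.19 ± 0.085 in MPP3 (adjusted p = 0.447) and 0.23 ± 0.085 in MPP4 (adjusted p = 0.270). It was the 1 member whose MPP4 libraries did not overlap, at 78.6 to 87.9 CPM in KO and 64.7 to 75.5 CPM in WT, where 2.83% of all genes stood higher in every KO library. H2-DMa had 0.11 ± 0.086 and 0.19 ± 0.086, H2-DMb2 0.02 ± 0.19 and 0.25 ± 0.18, H2-Oa -0.026 ± 0.14 and -0.012 ± 0.14, and H2-Ob -0.069 ± 0.17 and -0.062 ± 0.17 (adjusted p from 0.375 to 0.987 for these 4 genes). Ciita had 0.71 ± 0.42 in MPP3 and 0.28 ± 0.41 in MPP4 (adjusted p = 0.609 and 0.807).

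The difference between the genotype effects in the 2 populations, the interaction, was called for 0 members, and 0 had an unadjusted p under 0.05, where 0% and 2.28% of all genes were. The effect of the KO label in MPP3 minus that in MPP4 was 0.21 ± 0.30 for H2-Aa, -0.18 ± 0.23 for H2-Ab1, 0.27 ± 0.35 for H2-Eb1, -0.16 ± 0.29 for Cd74 and 0.43 ± 0.59 for Ciita on the log2 scale. With errors of this size, a difference between the populations as large as the genotype effect of Ciita itself could not have been detected for that gene.

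**Figure D3:**
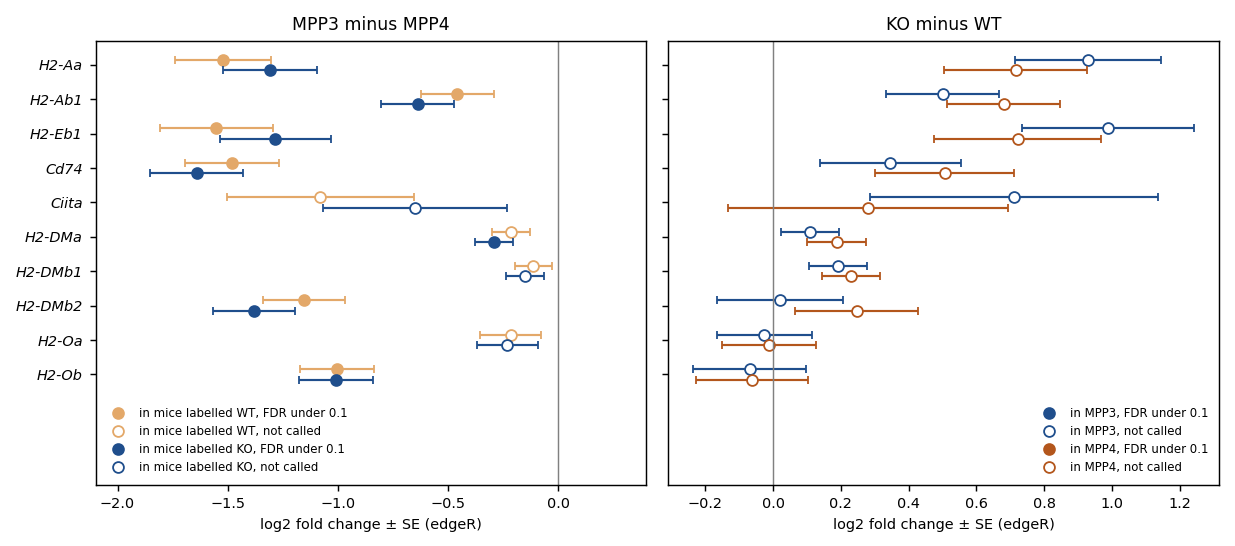
Log2 fold change ± SE of each class II gene from edgeR, MPP3 minus MPP4 on the left and KO minus WT on the right, with filled points for an adjusted p under 0.1. On the left all points lie below 0, from -1.64 to -0.11, and on the right no point is filled.

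The other pathway lists showed the same kind of result between the genotypes, with 0 genes called by edgeR in any of them. DESeq2, run on the lists after the data had been seen, called Ctss, Ctsh, Psmb8, Gbp3 and Irf8 higher in MPP3 KO cells, and in MPP4 KO cells it called Psmb8, Gbp3 and Irf8 higher and Jak1 lower (adjusted p from 0.00241 to 0.0994). The class I list had a median log2 fold change of 0.14 in MPP3 (9 of 10 genes above 0) and of 0.11 in MPP4 (10 of 10), and its lowest adjusted p-values were those of Psmb8, a subunit of the immunoproteasome, with 0.28 ± 0.07 in MPP3 (adjusted p = 0.164) and 0.35 ± 0.07 in MPP4 (adjusted p = 0.110). The interferon gamma list had medians of 0.17 (9 of 11 above 0) and 0.15 (7 of 11). The complex on the X and Y boxes had medians of -0.025 and -0.017 (2 of 7 above 0 in each). Irf8 had 0.88 ± 0.21 and 0.77 ± 0.21 (adjusted p = 0.164 and 0.182), and Ctss 0.47 ± 0.14 and 0.35 ± 0.14 (adjusted p = 0.235 and 0.293).

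Myeloid marker lists had log2 fold changes above 0 under the KO label, as the classical genes did, with 0 genes called by edgeR. The sum of 6 monocyte genes was 151 to 311 CPM in MPP3 WT and 254 to 624 CPM in MPP3 KO, and 103 to 119 against 153 to 276 CPM in MPP4, with 6 of 6 log2 fold changes above 0 in each population. The sum of 8 macrophage genes was 31.1 to 48.0 against 46.5 to 83.3 CPM in MPP3 and 37.8 to 43.4 against 40.2 to 64.9 CPM in MPP4, with 5 of 5 tested genes above 0. Of the conventional dendritic cell genes, Flt3, which made up most of their sum, had log2 fold changes of -0.19 in MPP3 and -0.28 in MPP4 (adjusted p = 0.525 and 0.229), Itgax of -0.40 and 0.42, and Clec10a of 0.10 and -0.15. The plasmacytoid list summed to 260 to 301 CPM in WT and 256 to 292 CPM in KO libraries of MPP3, and to 459 to 527 against 509.7 to 554 CPM in MPP4. The sum of 12 B cell genes was 271 to 879 CPM against 201 to 318 CPM in MPP3 and 1189 to 1298 CPM against 1227 to 1410 CPM in MPP4, and that of 8 plasma cell genes 269.7 to 778 CPM against 179 to 403 CPM in MPP3 and 209 to 376 CPM against 188 to 383 CPM in MPP4. By edgeR 0 genes of these lists were called between the genotypes. By DESeq2, 4 of 6 monocyte genes were called higher in MPP3 KO cells (Csf1r, Ccr2, F13a1 and Ms4a6c) and 3 in MPP4 KO cells (Csf1r, F13a1 and Ms4a6c), Cd68 of the macrophage list was called higher in MPP3, and Cox6a2 of the plasmacytoid list and Blnk of the B cell list were called higher in MPP4. Ighm and Cd79a of the B cell list and Mzb1 of the plasma cell list were called lower in MPP3 KO cells. Of the MPP3 marker list, Ctsg was called higher in both populations (0.87 and 0.94, adjusted p = 0.00881 and 0.00325), and of the endothelial list, Tek was called higher in MPP4 (1.90, adjusted p = 4.3e-06). The part of these cell types in the class II values was not tested.

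The third description concerns how the members varied among mice of the same group, on log2(CPM + 0.5) after subtraction of the group mean. Over the 16 libraries the classical genes deviated together, with Pearson r of 0.79 between H2-Aa and H2-Ab1, 0.72 between H2-Ab1 and H2-Eb1 and 0.55 between H2-Aa and H2-Eb1 (Spearman 0.84, 0.74 and 0.45). Among the 5 accessory chain genes the median r was 0.61 over 10 pairs, from 0.25 between H2-Oa and H2-Ob to 0.88 between H2-DMb1 and H2-DMb2, which share sequence. Between the classical and the accessory genes the median r was 0.24 over 15 pairs, from -0.096 between H2-Eb1 and H2-Ob to 0.54 between H2-Ab1 and H2-DMb1, and this median ranged from 0.14, without mouse WT2, to 0.39, without mouse KO2. Cd74 had r of 0.38 to 0.39 with the classical genes, which became 0.082 to 0.36 without mouse WT4 and 0.41 to 0.57 without mouse KO1, and -0.42 with H2-Ob. The points are not independent, since 2 libraries came from each mouse and all genes of a library share its scaling.

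Mouse KO4 had the largest deviations of Ciita, -0.92 in MPP3 and -0.72 in MPP4. Its Ciita level was 0.827 CPM in MPP3 and 1.78 CPM in MPP4, the lowest of the KO mice in both populations, and the same held for H2-Aa (13.4 and 30.8 CPM) and H2-Ab1 (90.0 and 123 CPM). Ciita had r of 0.66 with H2-Ab1, 0.48 with H2-Aa and 0.30 with H2-Eb1, a median of 0.48 that was 0.25 without this mouse, with a lowest r of -0.056. Within the classical genes the median r of 0.72 ranged from 0.59 to 0.80 when each mouse was left out in turn. Within the accessory genes the median of 0.61 ranged from 0.43, without mouse WT3, to 0.71, and the lowest r turned to -0.28 without mouse WT3. In mouse WT1 the deviations of H2-Ob were -0.52 in MPP3 and -0.43 in MPP4, the lowest of its groups.

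**Figure D4:**
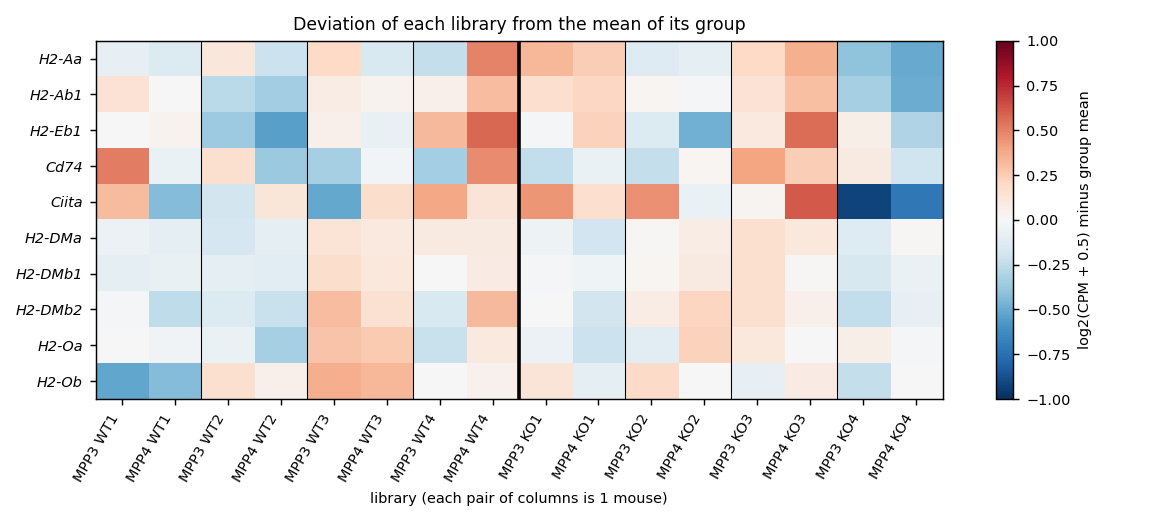
Deviation of each library from the mean of its group on log2(CPM + 0.5), with 1 row per class II gene and the MPP3 and MPP4 libraries of a mouse side by side. In mouse KO4 the cells of Ciita read -0.92 and -0.72, and those of H2-Aa -0.40 and -0.50.

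The genes whose levels were most like those of the members were sought among the other tested genes, by Pearson r with the mean standardised profile of the 10. Over all 16 libraries they were Bex6 (r = 0.96), Azin2, Zfp706, Ramp1, BC064078, Bloc1s2, Emb, Rpl27a, Sidt2 and Rgs10 (r = 0.92), a likeness that includes the difference between the populations. After subtraction of the group means they were Arl4c (r = 0.90), Snx5, Jund, Cxxc5, Stk19, Smim3, Haghl, Dusp2, Selenof and Cebpb (r = 0.83). No gene was in both lists. These are the highest values among all genes tested and carry no test.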

How the data were processed

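Paired-end reads of 100 bases were trimmed by the authors and mapped to mm10 by STAR 2.7.3a, and featureCounts 2.0.0 gave the number of reads per gene (versions per the labels). The raw read counts the authors deposited for each population, with no normalisation, were the input of all tests. Their table of normalised values was not used. Symbols and coordinates came from GENCODE M21 (GRCm38, the same assembly), which named 47224 of the 47937 identifiers. The annotation release and the use of strand in counting were not given in the sources used here.

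The members and gene lists were chosen with earlier results of these data known. A gene was kept if the mean of at least 1 group exceeded 100 counts, which left 11831. These were fitted in R 4.3.3 with edgeR 4.0.16 (TMM, quasi-likelihood F-test, legacy deviances), the 16 libraries together, with group as the single term. P-values were adjusted over all genes tested by the Benjamini-Hochberg method and called under 0.1. The script was tested on simulated data. Alternatives were DESeq2 1.42.0, limma 3.58.1 (voom, mouse as a random effect), RLE factors, other filters, sex, age and mouse as terms, only the groups compared, and each library or mouse left out.

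The deviations of the 2 libraries of a mouse from their group means correlated over the genes tested with r of 0.269 to 0.548. The highest r with another mouse of the same genotype ran from -0.039 for KO4 to 0.303 for WT4. Each mouse had a higher r with itself, but that of WT2 (0.269) was below the 0.303 of WT4. On this and the labels, MPP3 and MPP4 libraries were paired by mouse. The same replicate number in WT and KO names different animals (r from -0.464 to 0.127). Genes named are the 10 members, the fixed pathway and marker lists where a result turned on them, and the 10 genes most like the members by each of 2 measures. Promoters and transcripts came from RefSeq (GRCm38.p6) and GENCODE. P-values of the main fit measure the spread between libraries of a group, with the 2 libraries of a mouse treated as independent. With the mouse as a block they measure how the difference between the populations varied among mice. Limits from a count of 0 cover counting error only, since reads carried no molecular identifiers.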

Additional observations from a re-analysis of the deposited data

Results flagged for a closer look

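Of 40 groups of 4 libraries (10 genes in 4 groups), 2 held a library that stood apart from the other 3 by Dixon's ratio, which chance alone gives in about 1 group in 20. H2-Aa in the MPP4 library of mouse WT4 was at 38.1 CPM, while the other 3 lay between 23.1 and 24.4 CPM. Ciita in the MPP4 library of mouse WT1 was at 1.93 CPM, while the other 3 lay between 3.07 and 3.21 CPM.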

How the results depend on the processing

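Ciita had the fewest counts of the members, as few as 27, and the counting error was not separated from the spread between mice. Over 34 alternatives and 1609 values of single genes, 0 called values turned direction. The calls of H2-Aa, H2-Eb1, Cd74, H2-DMb2 and H2-Ob between the populations held in all 32 alternatives of each genotype, and 56 uncalled values changed sign.

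In WT mice 5 to 7 members were called between the populations when a library or mouse was left out. The 7 included Ciita, whose call is not counted as support. Between the genotypes edgeR called 0, and the count was 3 in MPP3 and 2 in MPP4 with DESeq2, 1 and 1 with sex as a term, and 0 to 1 in each when a library or mouse was left out. With age as a term it was 0 in both populations, where 0.00845% of all genes were called in each. An unadjusted p under 0.05 was then held by 3 members in MPP3 and 5 in MPP4, against 4 and 6 in the main fit. The replicate block by mouse called 8 members in WT, Ciita among them, and 7 in KO mice, as did limma. A block by the replicate number alone called 0 between the genotypes in either population. The median r among the classical genes was 0.72 with a pseudocount of 2 in place of 0.5 and 0.59 to 0.80 when a mouse was left out. Over all genes and in both directions, edgeR called 8 in MPP3 and 2 in MPP4, against 215 and 305 with DESeq2 and 58 (0.490%) and 183 (1.55%) with sex as a term. With a library or mouse left out the totals reached 137 (1.16%) in MPP3, without the WT library of mouse 3, and 49 (0.414%) in MPP4, without mouse KO4. The causes were not tested.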
